A study of Mus musculus with 2 samples.

Results

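Mir214 and the 3 Mir199 hairpins (Mir199a-1, Mir199a-2 and Mir199b) are miRNA genes that lie antisense to dynamin genes and are known from embryonic mesenchyme. They were chosen by symbol and not by a rule on their values, though earlier results of these data were known. They are 4 of the 1973 miRNA genes in the tables. Small RNA (inserts below 30 nt) was sequenced from the facial prominences of B6NCrl mouse embryos at embryonic day 10.5, with male and female embryos mixed. The series has 1 group with 2 biological replicates. Replicate 2 pooled 51 embryos and replicate 1 pooled 69, all from healthy animals with no treatment or allele named. With 1 tissue and 1 stage, the comparisons are between the hairpins, between each hairpin and the other miRNA genes, and between the pools.

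A miRNA gene is transcribed as part of a longer RNA, from which a hairpin is cut out. The hairpin is then cut into a duplex of its 5p and 3p arms, and the arm loaded into an Argonaute protein represses mRNAs that pair with its seed, the bases from position 2 to position 8. In mouse, Dnm3os is a long non-coding RNA on the strand opposite Dnm3 that carries Mir199a-2 and Mir214. Mice without Dnm3os grow poorly and have skeletal defects. Dnm1, Dnm2 and Dnm3 encode dynamins, GTPases that pinch vesicles off membranes. Published targets of miR-214 include Ezh2, a histone methyltransferase, in mouse muscle cells and Sufu, an inhibitor of Hedgehog signalling, in zebrafish.

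The hairpins are shown first, since what they share bears on which reads a gene count can hold. They are RefSeq sequences on GRCm38.p6, written 5′ to 3′ on the strand of the gene, with the annotated mature arms in capitals.
Mir214: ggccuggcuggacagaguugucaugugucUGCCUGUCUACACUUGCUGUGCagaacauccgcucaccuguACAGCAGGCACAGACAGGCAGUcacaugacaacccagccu
Mir199b: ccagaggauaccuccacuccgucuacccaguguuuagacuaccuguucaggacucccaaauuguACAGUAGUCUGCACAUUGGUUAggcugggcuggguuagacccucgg
Mir199a-2: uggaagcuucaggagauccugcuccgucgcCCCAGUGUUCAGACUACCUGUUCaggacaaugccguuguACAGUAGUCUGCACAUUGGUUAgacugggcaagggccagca
Mir199a-1: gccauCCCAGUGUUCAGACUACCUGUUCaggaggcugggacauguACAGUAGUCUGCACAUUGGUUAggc

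The mature arms are shown with the seed in capitals, to group them by the mRNAs they could pair with.
miR-214-3p: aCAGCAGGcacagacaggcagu
miR-214-5p: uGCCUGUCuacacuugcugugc
miR-199a-3p and miR-199b-3p: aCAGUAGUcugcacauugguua
miR-199a-5p: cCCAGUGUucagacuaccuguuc
The 3p arm of all 3 Mir199 hairpins is the same sequence, and the 5p arm of Mir199a-1 and Mir199a-2 is the same sequence. For Mir199b the 3p arm alone is marked. The stretch of its hairpin that lines up with miR-199a-5p (chr2:32318485-32318507, plus strand) is identical to it at 22 of 23 bases, with the difference C10U counted from the 5′ end of miR-199a-5p, and is given here with that base in capitals.
Mir199b 5p stretch: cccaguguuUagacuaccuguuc
The differing base lies outside the seed. Among the 1738 mature entries of the RefSeq table used, no other gene had the seed of miR-199-3p, of miR-199a-5p or of miR-214-5p. The seed of miR-214-3p was shared with miR-761, whose gene Mir761 had 0 counts in replicate 2 and 0 counts in replicate 1.

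The genes lie at 3 loci of the mouse genome (GENCODE M21 on GRCm38). Mir199a-2 (ENSMUSG00000070126.1, chromosome 1, 162217814 to 162217923) and Mir214 (ENSMUSG00000065516.1, chromosome 1, 162223368 to 162223477) are both on the plus strand within Dnm3os (162217623 to 162225550). Each lies inside an exon of 2 of the 6 annotated Dnm3os transcripts, and 5444 bases separate them. Both are in introns of Dnm3 on the opposite strand. Mir199b (ENSMUSG00000092807.1, chromosome 2, 32318460 to 32318569, plus strand) is in an intron of Dnm1 on the opposite strand. Mir199a-1 (ENSMUSG00000065547.1, chromosome 9, 21496495 to 21496564, minus strand) is in an intron of Dnm2 on the opposite strand. For Mir199b and Mir199a-1, no host gene on their own strand was found in M21. No other annotated miRNA gene of the tables overlaps any of the 4.

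Replicate 2 held 8643947 reads, of which 3517226 were counted on the strand of a miRNA gene, and replicate 1 held 6828248 reads, of which 2853511 were so counted. Levels are given in CPM, which scales a count by the sum of such counts in its library. For a gene with no count, the limit of 3 counts is 0.853 CPM (replicate 2) or 1.05 CPM (replicate 1). Intervals and limits cover counting error alone and not the spread between replicates. PCR copies of a molecule are counted as separate reads, so the intervals can be too narrow for molecules. A gene's count sums both arms, and the capture of small RNAs varies with their sequence, so levels of different genes are compared as reads. In bulk tissue, fewer cells of a type and less RNA per cell cannot be told apart.

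Mir214 was the most abundant of the 4, with a level far above the Mir199 hairpins. It had 48546 counts in replicate 2 and 43586 counts in replicate 1, or 13802 CPM in replicate 2 (exact Poisson 95% interval 13680 to 13926) and 15275 CPM in replicate 1 (15131 to 15419). The mean was 14538 ± 1041 CPM (SD, n = 2), which is 1.45% ± 0.104 of all counts and the 15th highest of 1973 genes. Its neighbours in the order of mean levels were Mir18 and Mir106b above it, with 15075 ± 739 CPM and 14900 ± 1001 CPM, and Mir130b and Mir183 below it, with 13029 ± 554 CPM and 11430 ± 971 CPM (SD, n = 2 each). The libraries' values of Mir214 overlapped those of Mir18 and Mir106b, and lay above those of Mir130b and Mir183 in both libraries. With Mir199a-2, the other miRNA of Dnm3os, it made up 14723 ± 1030 CPM.

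Mir199b was the highest of the Mir199 hairpins. It had 3946 counts (1122 CPM, 95% interval 1087 to 1157) in replicate 2 and 4391 counts (1539 CPM, 1494 to 1585) in replicate 1, so its libraries stood apart by more than counting error. The mean was 1330.4 ± 295 CPM (SD, n = 2), rank 97. Its nearest genes in level were Mir323 (1382 CPM) and Mir27b (1349 CPM) above and Mir107 (1293 CPM) and Mir25 (1287 CPM) below, and its libraries' values overlapped those of all 4.

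Mir199a-2 had 674 counts (192 CPM, 95% interval 177 to 207) in replicate 2 and 504 counts (177 CPM, 162 to 193) in replicate 1, with a mean of 184 ± 10.6 CPM (SD, n = 2) and rank 179. It stood among Mir224 (188 CPM), Mir505 (186 CPM), Mir329 (184 CPM) and Mir412 (182 CPM), from none of which its libraries' values were separate. Mir199a-1 had the lowest level, with 28 counts (7.96 CPM, 95% interval 5.29 to 11.5) in replicate 2 and 38 counts (13.3 CPM, 9.42 to 18.3) in replicate 1. Its mean was 10.6 ± 3.79 CPM (SD, n = 2), rank 318, beside Mir147, Mir1948, Mir218-1 and Mir5618 with 10.4 to 11.1 CPM, and its values overlapped theirs. The order Mir214, Mir199b, Mir199a-2, Mir199a-1 was the same in both libraries, and no pair of the 4 overlapped.

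**Figure D1:**
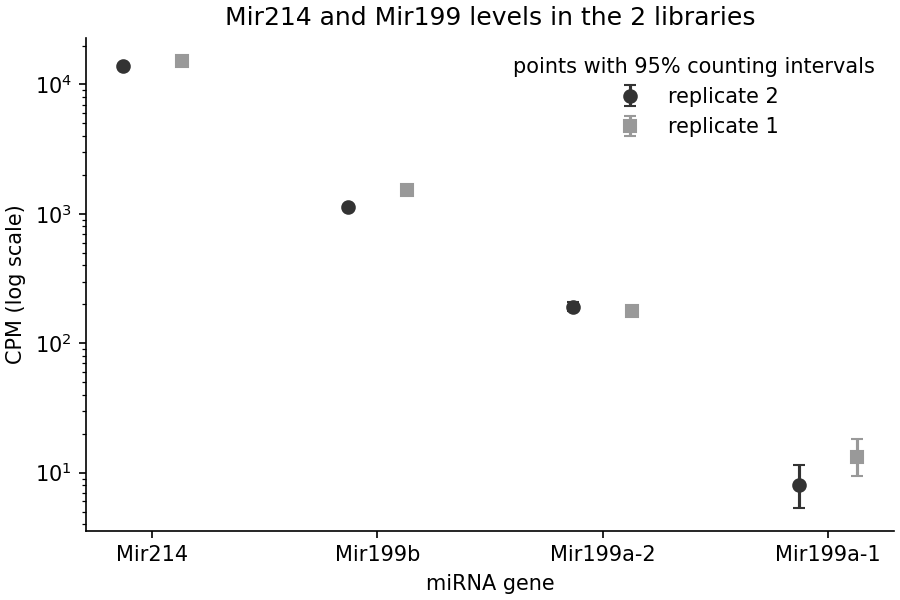
Level of each gene in CPM (log axis) in replicate 2 (circles) and replicate 1 (squares), with exact Poisson 95% counting intervals, which are smaller than the symbols for the higher genes. Mir214 lies at 13802 and 15275 CPM, Mir199b at 1122 and 1539 CPM, Mir199a-2 at 192 and 177 CPM and Mir199a-1 at 7.96 and 13.3 CPM.

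The 3 Mir199 hairpins together had 1321.5 CPM (replicate 2) and 1729 CPM (replicate 1), a mean of 1525 ± 288 CPM (SD, n = 2). Mir199b supplied 84.9% of these counts in replicate 2 and 89.0% in replicate 1, and Mir199a-2 supplied 14.5% in replicate 2 and 10.2% in replicate 1. The sum over all 4 genes was 15124 CPM for replicate 2 and 17003 CPM for replicate 1, a mean of 16064 ± 1329 CPM or 1.61% ± 0.133 of all counts. Mir214 was 91.3% of that sum in replicate 2 and 89.8% in replicate 1.

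**Figure D2:**
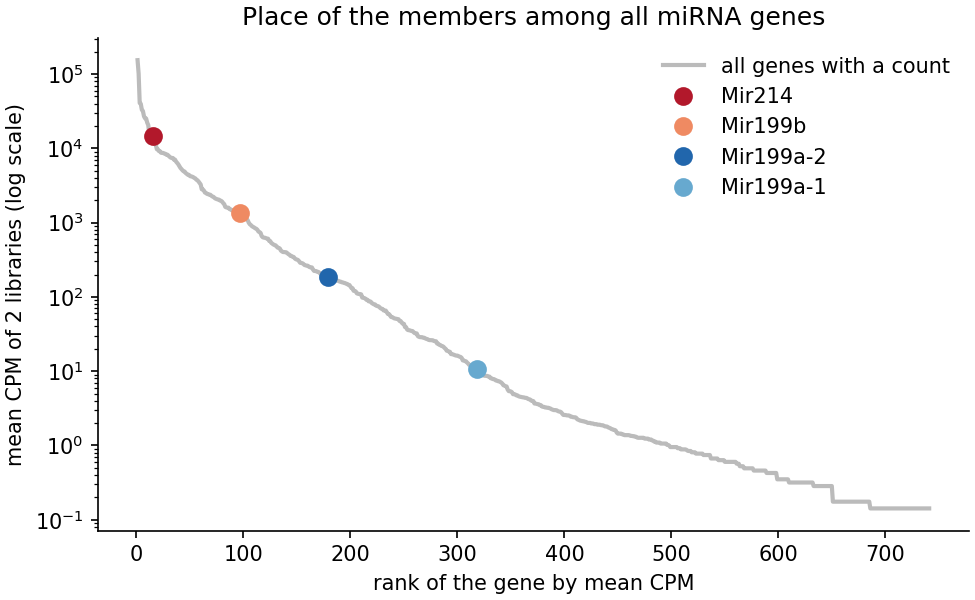
Mean CPM over the 2 libraries (log axis) against rank for every miRNA gene with a count (grey line), with the 4 genes marked. Mir214 is at rank 15, Mir199b at rank 97, Mir199a-2 at rank 179 and Mir199a-1 at rank 318, so the 4 spread over the range of detected levels.

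The Mir199 counts can leave out reads of the shared arms. Reads that map to several places are absent from gene counts, and they numbered 2236310 (25.9% of reads) in replicate 2 and 1883496 (27.6%) in replicate 1. A read of exactly the miR-199-3p sequence matches 3 annotated hairpins, and a read of exactly miR-199a-5p matches 2. How many of the reads with several places carry a miR-199 sequence was not analysed here. Both arms of Mir214 occur in 1 hairpin only, so the gap between Mir214 and the Mir199 hairpins, and the order among the Mir199 hairpins, are those of assigned reads and not of mature miRNAs.

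The hairpins differ in how much of them is their own. Each 22-base window was searched in 2202 annotated miRNA hairpins on both strands, with exact matches only, as no genome sequence was used. All 89 windows of Mir214 were found at 1 place. In Mir199b this held for 81 of 89 windows, in Mir199a-2 for 77 of 89 and in Mir199a-1 for 36 of 49. The windows at several places lay over the 3p arm in Mir199b and over both arms in Mir199a-2 and Mir199a-1. In Mir199b the windows over the 5p stretch with C10U were all at 1 place. Which reads made up the counts of each Mir199 hairpin was not analysed here.

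**Figure D3:**
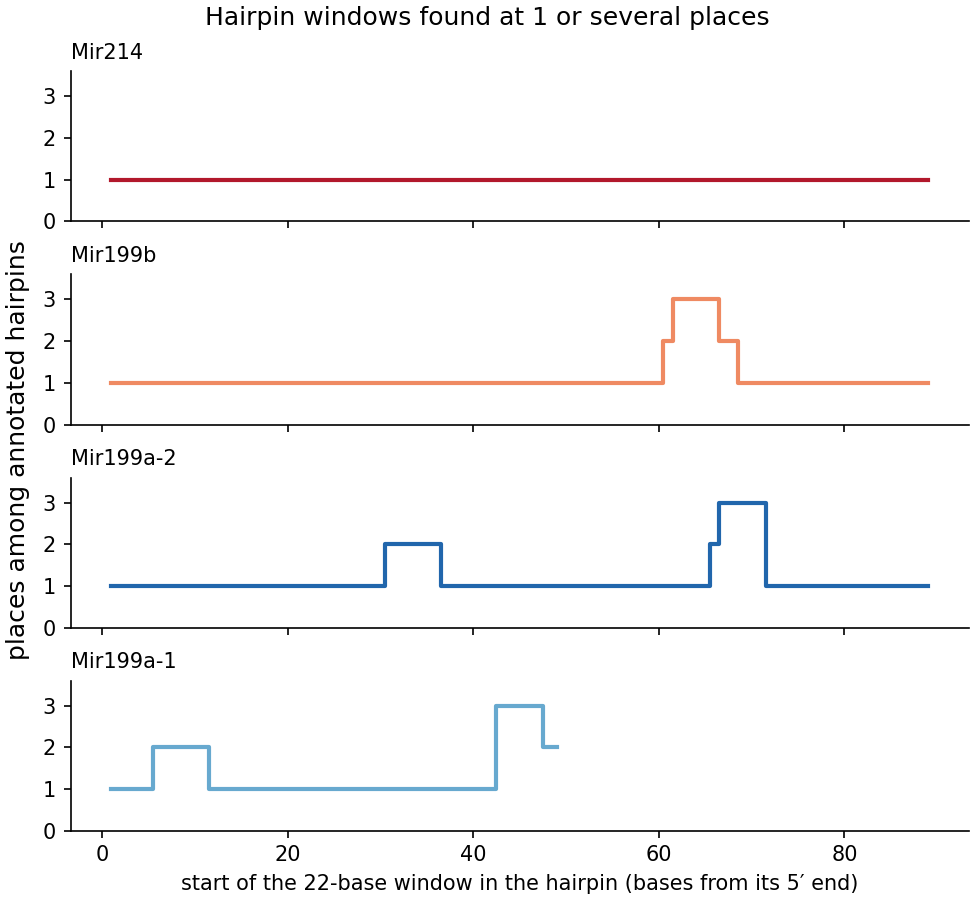
Number of places among annotated miRNA hairpins at which each 22-base window occurs, against the start of the window in bases from the 5′ end of the hairpin, 1 panel per gene. Mir214 is at 1 throughout, Mir199b reaches 3 over its 3p arm, and Mir199a-2 and Mir199a-1 reach 2 over the 5p arm and 3 over the 3p arm.

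With exact matches among annotated hairpins, a sequence with bases beyond the annotated arm can occur at 1 place only. Whether such reads were assigned depends on the aligner and its settings, which are not given, and was not tested. For miR-199a-5p, 1 extra base at the 5′ end or 5 extra bases at the 3′ end made the sequence single-place, in Mir199a-2 and in Mir199a-1 alike. For the 3p arm, Mir199a-2 needed 5 extra bases at the 5′ end or 2 at the 3′ end, and Mir199b needed 5 or 4. Mir199a-1 needed 4 extra bases at the 5′ end, and the 3 bases that its annotated hairpin has after the 3p arm did not separate it from Mir199b. The 4 bases at the 3′ end of Mir199b thus run past the end of the annotated Mir199a-1 hairpin, and the genome there was not searched. Over their whole length the Mir199 hairpins were 77.3% to 85.7% identical to each other, with identical stretches of 27 or 28 bases, while Mir214 shared no stretch over 7 bases with any of them.

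Genes whose annotated arms all occur in another hairpin numbered 35, of which 7 had at least 10 counts in each library, against 296 of 832 genes with no arm in another hairpin. Mir199b, with its 1 annotated arm, was the highest of the 7 at 1330.4 CPM. The 7, some of them with 1 annotated arm only, had a median of 184 CPM, and the 296 had a median of 214 CPM. Of 582 genes with 2 annotated arms, both arms occurred in another hairpin in 19, and 4 of these had at least 10 counts in each library. The 4 were Mir199a-2 (184 CPM), Mir9-3 (34.7 CPM), Mirlet7a-1 (12.1 CPM) and Mir199a-1 (10.6 CPM), of which Mirlet7a-1 was named after its values were seen. By comparison, 241 of 514 genes with no shared arm were detected (46.9%), and 36 of 49 with 1 shared arm (73.5%), by the same minimum of 10 counts in each library. Among these detected genes with 2 annotated arms, the median was 23.4 CPM with both arms shared, 67.3 CPM with 1 shared and 264 CPM with none shared. These counts and medians over genes are a description and were not tested.

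Mir214 and Mir199a-2, which lie in the same host RNA, differed widely in counts. There were 72.0 counts of Mir214 per count of Mir199a-2 in replicate 2 (exact 95% interval 66.8 to 77.8) and 86.5 in replicate 1 (79.2 to 94.6). The ratio between the libraries was 0.833 and passed Fisher's exact test (two-sided, adjusted p = 0.00408 over the 6 pairs of the 4 genes), as a difference between these libraries beyond counting error. Among 113 pairs of detected miRNA genes that are neighbours within 10 kb on 1 strand, the median ratio of the higher to the lower gene was 6.74 in mean CPM. For the Dnm3os pair it was 79.0, and 17 of the 113 pairs, this pair included, had a ratio at least as large. Where neither gene shared a 20-base stretch with another hairpin, 3 of 62 pairs did. Some pairs were set aside although no annotated arm of either gene occurs in another hairpin. The split is thus not one by unassigned reads. Mir199a-2 does share such a stretch, and the part of unassigned reads in its low count was not tested.

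By counting error alone, the other pairs did not all keep their ratio between the libraries. The tests that follow do not cover the spread between replicates. Mir214 per Mir199b was 12.3 in replicate 2 and 9.93 in replicate 1 (adjusted p = 4.29e-20, two-sided Fisher's exact test, as for the pairs that follow). Mir199b per Mir199a-2 was 5.85 in replicate 2 and 8.71 in replicate 1 (adjusted p = 7.13e-10). Mir199a-2 per Mir199a-1 was 24.1 in replicate 2 and 13.3 in replicate 1 (adjusted p = 0.0321), on few Mir199a-1 counts. Mir214 per Mir199a-1 (1734 in replicate 2, 1147 in replicate 1, adjusted p = 0.131) and Mir199b per Mir199a-1 (141 in replicate 2, 116 in replicate 1, adjusted p = 0.459) did not pass. With 28 and 38 counts of Mir199a-1, this does not show that those ratios were equal.

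No reads on the strand opposite the 4 genes were counted, so the tables hold none from the Dnm1, Dnm2 or Dnm3 side of these loci. For Mir214 a count of 0 allows an opposite-strand share of up to 0.00618% in replicate 2 and 0.00688% in replicate 1 (3 counts), and for Mir199b up to 0.0760% in replicate 2 and 0.0683% in replicate 1. The limits are wide for Mir199a-1, at 10.7% in replicate 2 and 7.89% in replicate 1. Over all genes, the counted strand held 97.6% of stranded gene reads in each library.

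Between the pools, Mir214 and Mir199b were lower in replicate 2, and Mir199a-2 and Mir199a-1 did not pass the test. Each log2 ratio has 0.5 CPM added, and its 95% counting interval was computed without that addition. The log2 ratio of CPM, replicate 2 over replicate 1 with 0.5 CPM added, was -0.15 for Mir214 (95% counting interval -0.16 to -0.13, adjusted p = 5.95e-52) and -0.46 for Mir199b (-0.52 to -0.39, adjusted p = 5.32e-46), by the exact binomial test (two-sided, Benjamini-Hochberg adjusted over 449 genes). It was 0.12 for Mir199a-2 (-0.05 to 0.29, adjusted p = 0.313) and -0.71 for Mir199a-1 (-1.50 to 8.78e-05, adjusted p = 0.108) in the same exact binomial test. Thus 2 of the 4 passed, both lower in replicate 2, where 40.3% of all tested genes passed, 90 of them higher and 91 lower (20.3% of tested genes) in replicate 2. At 4 genes, 2 passing is near the background, which is over genes of all levels, and is no result about these genes. Over the 320 genes that averaged 10 CPM or more, the median log2 ratio was 0.02 and the lower and upper quartiles were -0.17 and 0.19. Mir214 and Mir199a-2 were between the quartiles, and Mir199b and Mir199a-1 were below the lower one. The edgeR exact test takes its spread between libraries from the same 2 libraries that it compares. A gene fails it unless its ratio stands out from those of the other genes, so failing does not show equal levels. With the spread between libraries estimated over all genes (edgeR exact test, common coefficient of variation 0.178), none of the 4 passed, with unadjusted p of 0.633 for Mir214, 0.188 for Mir199b, 0.817 for Mir199a-2 and 0.172 for Mir199a-1.

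**Figure D4:**
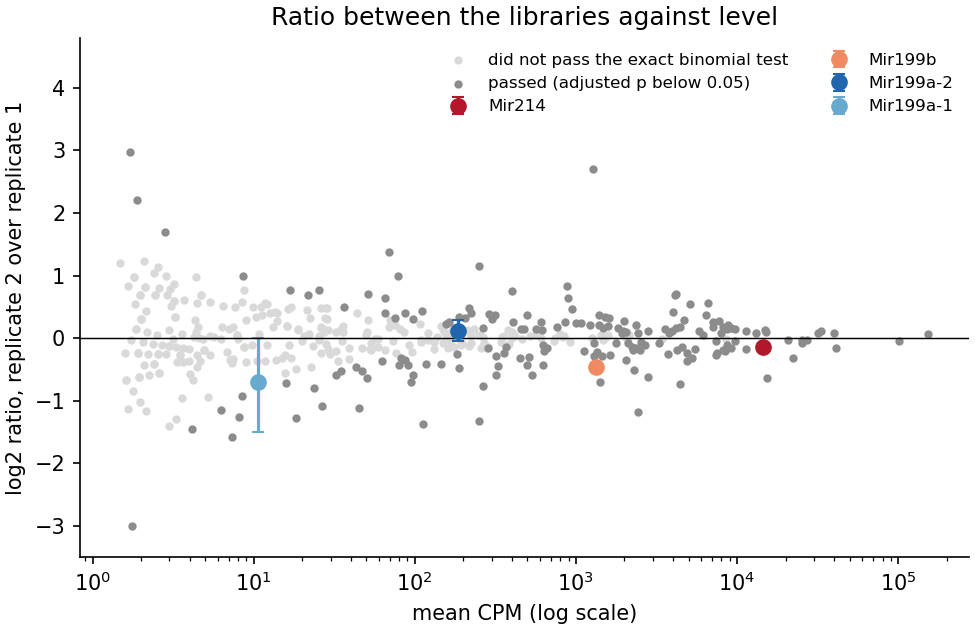
The log2 ratio of replicate 2 over replicate 1 against mean CPM (log axis) for the 449 tested genes, dark grey where the exact binomial test passed and light grey where it did not, with the 4 genes in colour and their 95% counting intervals. Mir214 (-0.15) and Mir199b (-0.46) lie below 0, and the intervals of Mir199a-2 and Mir199a-1 reach 0.

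The genes closest to each of the 4 were taken as the 3 with the nearest log2 ratio among tested genes within 2-fold of its mean CPM. With 2 libraries such a likeness rests on 1 ratio per gene and is a description. For Mir214 (27 candidates) they were Mir205, Mir183 and Mir23b, with log2 ratios of -0.16, -0.17 and -0.11. For Mir199b (52 candidates) they were Mir200b at -0.51, Mir425 at -0.35 and Mir107 at -0.29. For Mir199a-2 (70 candidates) they were Mir412 at 0.12, Mir500 at 0.13 and Mir377 at 0.10. For Mir199a-1 (62 candidates) they were Mirlet7a-2 at -0.72, Mir741 at -0.55 and Mirlet7b at -0.92.

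Among 12 matched genes of a list of mesenchyme and neural crest miRNAs, Mir214 was the highest. It was followed by Mir23b with 8668 ± 483 CPM and Mir143, a miRNA of smooth muscle and mesenchyme, with 8449 ± 846 CPM (SD, n = 2 each). Mir140, known for its role in cartilage, had 4230 ± 406 CPM. Mir199b was the eighth, Mir199a-2 the ninth and Mir199a-1 the lowest. The 4 genes held 33.1% of the list's counts in replicate 2 and 33.2% in replicate 1. Of the 8 other genes of the list, 6 were lower and 1, Mir22 with a log2 ratio of 0.12, was higher in replicate 2 by the exact binomial test, with a median of -0.20, where 40.3% of all tested genes passed and 20.3% were lower. In the epithelium list, led by Mir205 with 9187 ± 710 CPM, 6 of 7 genes were lower and 0 higher by that test, with a median of -0.27, beside the same 20.3% of all tested genes. With the spread between libraries allowed for (edgeR exact test), 0 of these 8 and 0 of these 7 genes passed, and 1 gene in all did, Mir219a-2, with 21 genes at an unadjusted p below 0.05. That spread comes from the same 2 libraries that are compared, so failing this test does not show equal levels. The shares of 40.3% and 20.3% are over tested genes of all levels. As the binomial test passes smaller ratios at higher counts, those shares are not matched to these lists. The counts of the lists are a description of these libraries and say nothing of the layers. The part of the cell makeup in the ratios of Mir214 and Mir199b was not tested.

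**Figure D5:**
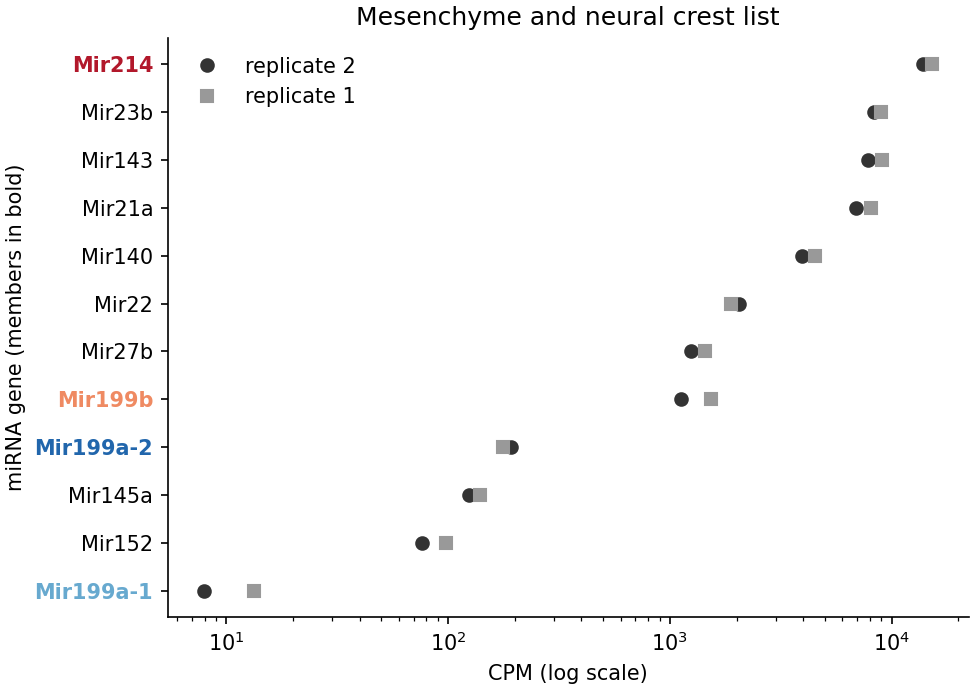
CPM (log axis) of the 12 matched genes of the mesenchyme and neural crest list in replicate 2 (circles) and replicate 1 (squares), ordered by mean level, with Mir214 and the Mir199 hairpins in bold. Mir214 tops the list and Mir199a-1 is at its foot.

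The marker lists were chosen with earlier results of these data known, so their sums describe the libraries and do not check the labelled tissue. The miRNAs of the mesenchyme and neural crest list had 45640.5 CPM (replicate 2) and 51259 CPM (replicate 1). Epithelial miRNAs had 23965 CPM (replicate 2) and 28691 CPM (replicate 1), and Mir126a of endothelium had 34369 CPM (replicate 2) and 31642 CPM (replicate 1). The lists of neural cells, blood and muscle had lower sums of assigned reads. Neural miRNAs had 713 CPM in replicate 2 and 800.4 CPM in replicate 1, blood miRNAs had 624 CPM in replicate 2 and 848 CPM in replicate 1, and those of striated and cardiac muscle had 131 CPM in replicate 2 and 80.6 CPM in replicate 1. Of the neural genes, 7 of 8 share a 20-base stretch with another hairpin, and so do 4 of 8 muscle genes, 2 of 5 blood genes, 5 of 12 mesenchyme and neural crest genes and 0 of 7 epithelial genes. Mir126a, the 1 gene of the endothelium list, shares such a stretch too. A stretch can lie in any part of a hairpin and on either strand, so sharing it does not by itself show that reads map to several places. No annotated arm of Mir126a, Mir23b or Mir27b occurs in another hairpin. Mir133a-1 and Mir133a-2, both at 0 counts, are among those 4 muscle genes. As for the Mir199 hairpins, reads with several places are not in these sums, so a low sum or a 0 here does not show low expression. The tissue holds several cell types and the labels separate none, so the counts of Mir214 and the Mir199 hairpins cannot be assigned to mesenchyme from these libraries.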

How the data were processed

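The authors deposited 1 table of raw read counts per library. The genome was mm10 and the annotation GENCODE M4, according to the text files beside the tables. The aligner is not given in the sources used here. Each table gives a count on either strand, on the gene's strand and on the opposite strand, and 4 summary lines that name no gene. Those lines stayed out of library sizes. They held 59.3% of reads in replicate 2 and 58.2% in replicate 1, as unmapped, multi-mapping or outside genes. CPM was computed from the count on the gene's strand, over all gene rows.

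Identifiers without version were matched to GENCODE M21 (1894 of 1973). Sequences came from RefSeq (GRCm38.p6), where all 4 genes matched by symbol, and windows were searched in M21 hairpins.

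The samples form 1 group, so edgeR's quasi-likelihood test could not be fitted. Library differences were tested with exact two-sided binomial tests on counts for the 449 genes with at least 10 counts in all, with Benjamini-Hochberg adjustment and a threshold of 0.05. These tests compare the 2 libraries and not conditions. Ratios within pairs used Fisher's exact test. The alternatives were other totals, TMM (edgeR 4.0.16), size factors (DESeq2 1.42.0), other filters, pseudocounts and an edgeR exact test. The procedures were also run on simulated data, with outcomes not given here. Scripts used Python 3.11.15 with scipy 1.17.1, and biopython 1.88 for hairpin identity (global alignment, over the shorter hairpin).

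The genes named are the 4 members, the 2 next above and below each in level, the 3 nearest in ratio within 2-fold of its level, the leading list members, seed partners and overlapping genes. The list genes Mir22 and Mir140 and the 2 muscle genes at 0 were named after their values were seen. The members and lists were chosen with earlier results of these data known. Of the lists' 45 genes, 41 were matched, and Mir145 was taken as Mir145a. The comparison of neighbouring genes was added after the values were seen.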

Additional observations from a re-analysis of the deposited data

How the results depend on the processing

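No paired analysis was possible because the samples form 1 group. Leaving out each replicate in turn gave a range of 15124 to 17003 CPM for the sum of the 4 genes, 13802 to 15275 CPM for Mir214, 1321.5 to 1729 CPM for the Mir199 sum, 72.0 to 86.5 Mir214 counts per Mir199a-2 count, and an opposite-strand share of 0 in both. Levels moved with the total they were scaled to, by construction. Scaled to all reads of the library, the sum was 6629.8, Mir214 5999.7 and the Mir199 sum 630.1. Scaled to genes that share no 20-base stretch, the sum was 18707 and Mir214 16931. The count of genes called between the libraries was 181, and 170 to 186 under TMM, size factors, the unstranded count and other filters. It was 1 (Mir219a-2) under the edgeR exact test, with 21 genes at an unadjusted p below 0.05. That test takes the spread between libraries from the same 2 libraries it compares, so failing it does not show equal levels. Under it Mir214 had a log2 ratio of -0.17 and Mir199b of -0.48, and neither passed (adjusted p of 1 each). Of 63 recomputed values, 55 kept their direction and call or stayed within their spread, 5 moved, 2 (the ratios of Mir214 and Mir199b) no longer passed, 1 (the count of genes called) dropped and 0 reversed. Part of this tally was fixed in advance. With 2 libraries, leaving 1 out returns the value of the other, which always lies within the SD of the mean. The pseudocount does not enter the binomial test, so it cannot change a call. Depth limits Mir199a-1 most, at 28 and 38 counts.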
